A study of Mus musculus with 6 samples.

Results

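A small group of B cells was present among the splenic regulatory T (Treg) cells that had been sorted for single-cell RNA sequencing. B cells were selected on their measured counts: at least 200 genes, under 10% of unique molecular identifiers (UMIs) from mitochondrial genes, 0 UMIs of the myeloid lysozyme gene Lyz2, at least 1 UMI of Cd79a, and 5 or more UMIs over Cd79a, Ms4a1, Cd79b, H2-Aa and Ly6d. This rule found 89 B cells among 10685 cells, of which 10680 passed the gene and mitochondrial limits. Of the 89 cells, 77 had under 2 UMIs of Cd3e, a chain of the T cell receptor complex, and 12 had 2 or more and were described apart as possible doublets, droplets that hold 2 cells. The reference was the 10162 cells with 0 UMIs of both Cd79a and Lyz2, which stand for the sorted cells.

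The study compared Treg cells that lack the transcriptional repressor Bach2 with Treg cells that have it. All mice were C57BL/6, 18 to 21 weeks old and given tamoxifen, and all carried Foxp3EGFP-Cre-ERT2, which places a green reporter and a tamoxifen-inducible Cre recombinase under the Foxp3 locus. The 3 cKO samples came from Bach2fl/fl mice and the 3 WT samples from Bach2+/+ mice, and the labels do not say how many mice went into a sample. CD4 T cells were enriched and EGFP-positive cells sorted before 10x Chromium 3′ libraries were made. A number at the end of each barcode divided the cells into 6 sets of 3998172 to 4786590 UMIs, and no name tied a set to a sample. Genotypes were therefore not compared, the whole table was treated as 1 pooled sample, and no p-value was computed from cells.

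B cells are the lymphocytes that make antibodies. A mature B cell carries a surface immunoglobulin that signals through the Cd79a and Cd79b chains, takes up the antigen it binds, and presents peptides of it to CD4 T cells on MHC class II molecules. The B lineage is set up by transcription factors such as Ebf1 and Pax5. In the spleen most B cells are follicular cells, with smaller groups of marginal zone cells, of transitional cells newly arrived from the bone marrow, and of antibody-secreting plasma cells.

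B cells occurred in every set. The sets held 16, 19, 9, 14, 16 and 15 of them, which was 0.833% of kept cells over all sets (exact Clopper-Pearson 95% interval 0.670 to 1.02%). The share was lowest in set 3, at 0.493% (0.226 to 0.934%), and highest in set 2, at 1.06% (0.639 to 1.65%), and these intervals overlapped. The intervals cover counting error only. Of 63 barcodes that occurred in more than 1 set, 3 belonged to B cells.

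The marker sum that chose the cells left a gap at its threshold. Of 223 kept cells with a Cd79a UMI, 131 had a sum of 1 to 4, none had 5 or 6, and the lowest B cell had 7. The 4 B cells nearest the threshold had sums of 7, 8, 9 and 9, and the next had 13. Just outside, 1 cell had a sum of 4 and 5 cells had 3. The median B cell had 24 marker UMIs and the highest had 59. Another 3 cells met the marker rule but had 1 Lyz2 UMI each, with sums of 13, 21 and 111. The last of these had 109 UMIs of H2-Aa and none of Ms4a1.

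**Figure D1:**
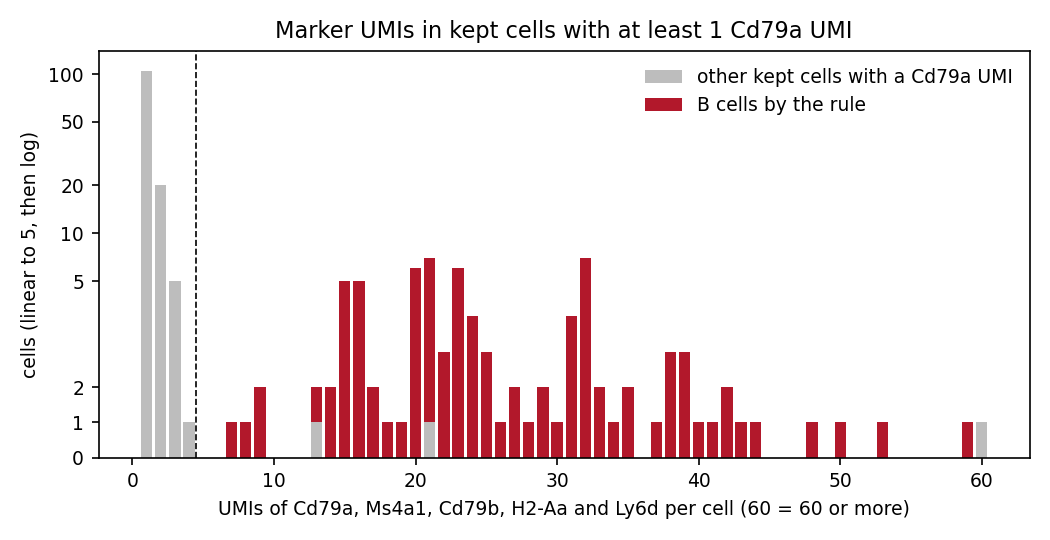
Number of kept cells with at least 1 Cd79a UMI (vertical axis, linear to 5 and logarithmic above) by their UMIs summed over the 5 marker genes (horizontal axis). Red bars are the 89 B cells, grey bars are other cells, and the dashed line is the threshold, which lies beside an empty stretch at 5 and 6 UMIs.

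The authors' normalised table held 10464 of the 10685 cells and none of the 89 B cells. B cells made up 40.3% of the 221 cells that were in the count table alone. The normalised table ended at 2497 genes and 4.99% mitochondrial UMIs. Of the 123 cells within 2500 genes and 5% mitochondrial UMIs that it did not hold, 88 (71.5%) were B cells and 1 more B cell was past those limits. In the normalised table the highest marker sum was 5, and 1 cell had 2 or more Cd79a UMIs. How its cells were selected is not given in the sources used here.

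The 77 B cells with under 2 Cd3e UMIs were close in depth to the reference. They held 152733 UMIs in all, with a median of 1849 UMIs (778 to 5939) and 813 genes per cell. Reference cells had a median of 2082.5 UMIs and 917 genes and held 23920815 UMIs. Mitochondrial genes took a median of 2.09% of UMIs in B cells and 1.83% in the reference, and ribosomal protein genes took 36.0% and 34.7%. UMIs were summed over the cells of a group, and levels are given in CPM, a gene's UMIs per 1000000 UMIs of the group, with exact 95% Poisson intervals. The values of a set are given as the lowest, the median and the highest of the 6. In summed cells, fewer cells that express a gene and less RNA per cell cannot be told apart.

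The 5 marker genes chose the cells, so their levels are a description. Cd79a (chromosome 7, 24897381 to 24902197) was at 2763 CPM, with a median of 5 UMIs per cell, and was 0 in the reference by the rule. Cd79b (chromosome 11, 106311341 to 106314762) was at 2390 CPM in B cells and 39.3 CPM in the reference. Ms4a1, which encodes the surface protein CD20 (chromosome 19, 11249675 to 11266241), was at 1107 and 1.38 CPM. Ly6d, a surface protein found from early B lineage stages (chromosome 15, 74762056 to 74763620), was at 2455 and 4.85 CPM. H2-Aa, the MHC class II alpha chain of the I-A molecule (chromosome 17, 34282744 to 34287823), was at 4315 and 9.66 CPM. Positions are those of GENCODE M21 on GRCm38, the assembly also called mm10. Not every cell held each marker: 73 of 77 had a UMI of Cd79b, 74 of H2-Aa, 72 of Ly6d and 62 of Ms4a1.

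Of 1161 genes with a mean of the 2 group levels of 100 CPM or more, 83 were 2-fold or more higher in B cells (7.15%) and 93 were 2-fold or more lower (8.01%). The 83, and all counts and shares taken from them, include the 5 marker genes, which the rule chose as high. Without the markers, 78 of 1156 genes were higher and 93 were lower. The median log2 ratio over the 1161 genes was -0.11. Of the higher genes, 70 stood above the reference of the same set in 6 of 6 sets, and of the lower genes 84 stood below it in 6 of 6. A gene that is near 0 in the reference passes the limit of 100 CPM only through the B cells, so the counts within gene lists describe the cells and test nothing. The lists and the 2-fold limit were chosen with earlier results of these data known.

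**Figure D2:**
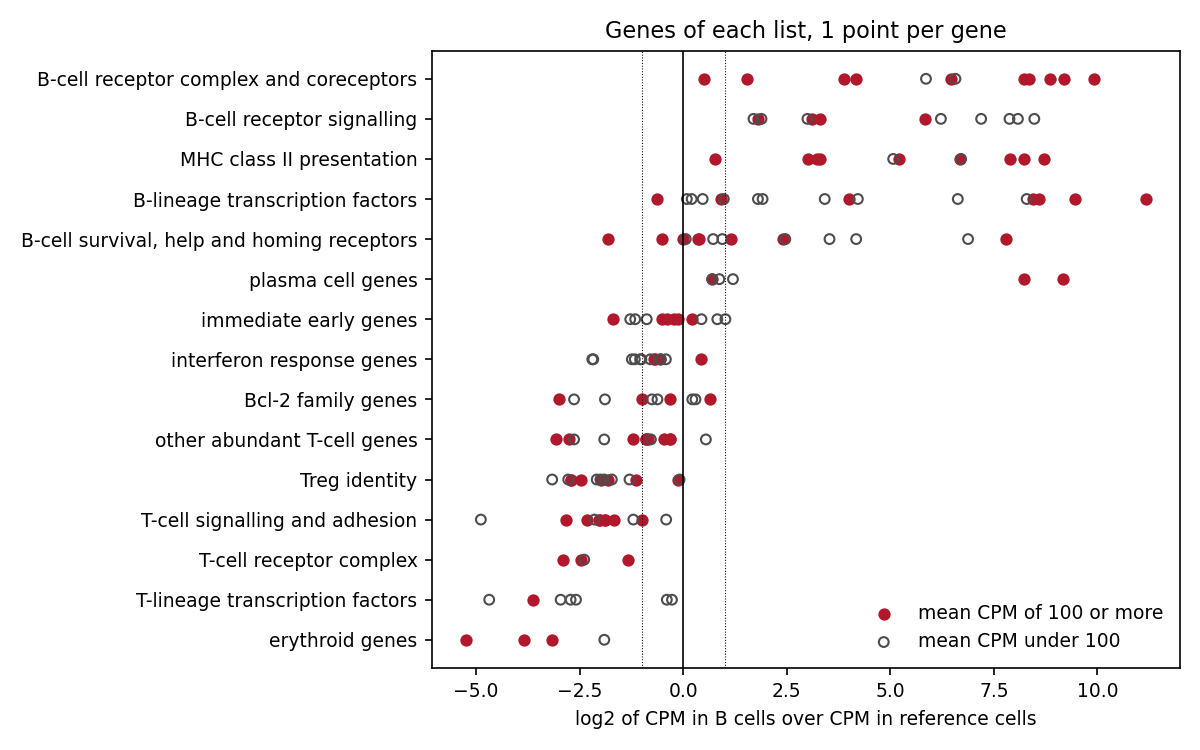
Log2 ratio of the level in B cells to the level in reference cells (horizontal axis), 1 point per gene, for 15 gene lists. Filled points have a mean level of 100 CPM or more, open points are lower, genes with under 20 UMIs over both groups or none in B cells are left out, and dotted lines mark 2-fold. Genes of the B-cell receptor, its signalling and MHC class II lie to the right of 0, and the T-cell receptor genes lie to the left.

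Antigen presentation genes stood out by the number of their UMIs. All 11 genes of the MHC class II list, which leaves out H2-Aa because the rule used it, had a higher level in B cells. So did 4428 of all 14098 genes, of which 5538 had no UMI in these B cells and could not be higher. Of 9 list genes with a mean level of 100 CPM or more, 8 were 2-fold or more higher, with a median log2 ratio of 5.21. Of all 1161 genes at that level, 7.15% were. Summed over the list, the level was 36141 CPM in B cells and 741 CPM in the reference. Cd74, the invariant chain that guides class II molecules to the compartment where they load peptide, was found in 77 of 77 B cells. Its level in the sets ran from 19698 through 23977 to 26794 CPM in B cells and from 202 through 225 to 299 CPM in the reference, so the groups were far apart in every set. H2-Ab1, the beta chain that pairs with H2-Aa, was at 5310 CPM (4951 to 5688) against 17.9 CPM (16.2 to 19.6). H2-Eb1, the beta chain of the I-E molecule, was at 3686 and 8.78 CPM. H2-DMb2, a chain of the H2-DM molecule that helps to exchange peptides, was at 982 and 4.14 CPM, and its partner H2-DMa at 563 and 70.3 CPM. Ctss, a protease that trims the invariant chain, was under 2-fold, at 543 and 321 CPM.

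Class II genes are known to share promoter elements called the X and Y boxes. These bind a common set of factors that includes NF-Y, through which the coactivator Ciita is recruited. The stretches that hold the Y core are shown for the 6 genes in which it was found, of which H2-Aa was a marker of the rule. The sequences are from RefSeq on GRCm38.p6 and all lie upstream of the gene start on chromosome 17, written 5′ to 3′ on the gene's strand. Capitals mark TGATTGG, a core of the Y box, and TGATGC, letters that occur in the X box. In H2-Eb1 the letters TGATGC occur again directly before the Y core, and not every match is an X box.
H2-Aa: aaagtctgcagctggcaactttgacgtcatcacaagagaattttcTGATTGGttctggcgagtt
H2-Eb1: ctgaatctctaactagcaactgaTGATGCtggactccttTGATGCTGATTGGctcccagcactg
H2-DMb1: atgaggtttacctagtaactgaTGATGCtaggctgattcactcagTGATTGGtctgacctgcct
H2-DMb2: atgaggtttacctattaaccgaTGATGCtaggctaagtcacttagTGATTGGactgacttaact
H2-Oa: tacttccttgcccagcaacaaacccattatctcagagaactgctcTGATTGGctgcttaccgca
H2-Ob: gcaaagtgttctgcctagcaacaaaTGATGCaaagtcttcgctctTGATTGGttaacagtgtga

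The 6 stretches lie at chr17:34287855-34287918 on the minus strand for H2-Aa, and on the plus strand at chr17:34305761-34305824 for H2-Eb1, chr17:34153083-34153146 for H2-DMb1, chr17:34145112-34145175 for H2-DMb2, chr17:34092289-34092352 for H2-Oa and chr17:34238801-34238864 for H2-Ob. The Y core began 45 to 92 bases before the gene start. On either strand, the Y core was found within 300 bases around the start of 6 of 7 class II genes in the table (H2-DMa was the other), and in 9.0% of 27025 genes. The letters TGATGC were found in 4 of the 7 and in 12.5% of all genes. They are only part of the X box, so a gene without them, such as H2-Aa or H2-Oa, may still have an X box. H2-Ab1, Cd74 and Ciita had no entry. The motifs do not overlap each other as written, and a match of letters is a description, not a binding site.

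In B cells, the lesser members of the family printed above stood at 170 CPM for H2-DMb1, 471 CPM for H2-Oa and 498 CPM for H2-Ob. In the reference they stood at 1.63, 47.7 and 13.5 CPM. H2-Oa and H2-Ob form H2-DO, which is known to restrain H2-DM in B cells. All 6 genes with a Y core were higher in B cells, H2-Aa among them through the rule itself. H2-DMa, which lacked those letters in this window, was higher too. Over all genes, 4428 of 14098 had a higher level in B cells. A link between the letters and the level was not tested.

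Genes of the B-cell receptor complex and its coreceptors were higher in 13 of 13 cases, and 9 of the 10 with a mean level of 100 CPM or more passed 2-fold. Over all genes these shares were 4428 of 14098 and 7.15%. Siglecg, an inhibitory receptor of B cells, was at 485 CPM (380 to 608) with 12 UMIs in the whole reference, or 0.50 CPM. Fcmr, the receptor for IgM, was at 733 and 2.47 CPM. Fcrla, an intracellular Fc receptor-like protein, was at 268 and 0.46 CPM. The tetraspanin genes Cd37 and Cd81, which T cells express too, were nearer the reference, at 904 against 313 CPM and 314 against 223 CPM. Below the receptor, 14 of 15 signalling genes had a higher level in B cells and 1 had no UMI there. The scaffold protein gene Bank1 was at 360 and 6.35 CPM, the proton channel gene Hvcn1 at 373 and 43.1 CPM, and the kinase gene Blk at 164 and 0.46 CPM. The phosphatase gene Ptpn6 was at 419 and 119 CPM.

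The lineage transcription factors showed the widest spread of ratios. Ebf1, an initiator of the B-cell programme (chromosome 11, 44617317 to 45008091), was at 883 to 1349 CPM in the sets with a median of 1205, while each set's reference was between 0 and 1.06 CPM. A UMI of Ebf1 was found in 66 of 77 B cells and in 12 of 10162 reference cells (0.118%). Mef2c, Spib and Bcl11a stood at 674, 210 and 203 CPM against 0.96, 0.54 and 0.59 CPM. Irf8, which acts in B and myeloid cells, was at 439 and 27.3 CPM. Ets1, active in both B and T cells, was below the reference in 6 of 6 sets, at 229 (160 to 319) and 353 CPM. Over the list, 16 of 17 genes had a higher level in B cells and 5 of 7 with a mean level of 100 CPM or more passed 2-fold. Over all genes these shares were 4428 of 14098 and 7.15%. For Bcl6 the higher level rested on 1 UMI, at 6.55 and 4.72 CPM.

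Among the largest ratios outside these lists were Gm43603 at 583 and 0.25 CPM, Ly86, a partner of the receptor RP105, at 242 and 0.54 CPM, and the protease gene Ctsh at 354 and 0.88 CPM. They exceeded the reference in every set. The list of survival, help and homing receptors was mixed: 3 of 8 genes with a mean level of 100 CPM or more passed 2-fold upward and 1 downward, with a median log2 ratio of 0.38. Of all 1161 genes at that level, 7.15% passed upward and 8.01% downward. Tnfrsf13c, the receptor for the survival factor BAFF, was at 249 (176 to 341) and 1.13 CPM, and Tnfrsf13b, another receptor of that family, at 223 and 41.6 CPM. Itgb7, an integrin chain, was lower in every set, at 105 and 367 CPM.

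**Figure D3:**
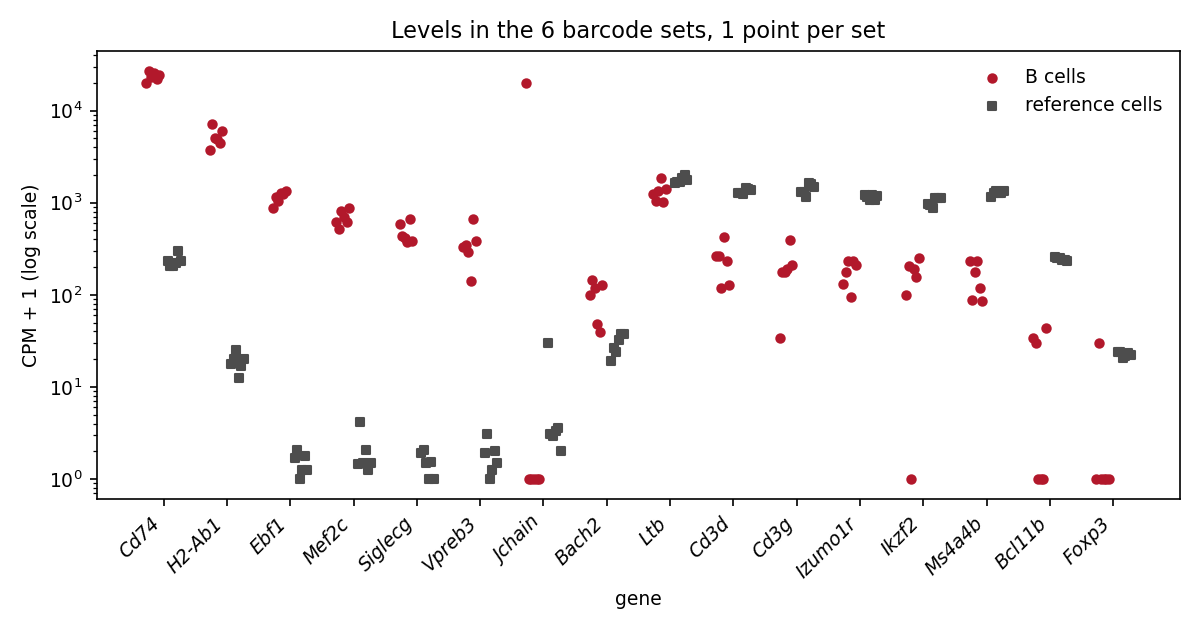
Level of 16 genes (CPM + 1, logarithmic axis) in B cells with under 2 Cd3e UMIs (red circles) and in reference cells (grey squares), 1 point for each of the 6 barcode sets. Ebf1, Mef2c and Siglecg separate the groups in every set, and Jchain is above 0 in B cells of 1 set alone. Cd3d, Cd3g, Izumo1r, Ikzf2, Ms4a4b and Bcl11b stand lower in B cells in every set (Ikzf2 is at 0 in 1 set and Bcl11b in 3). Ltb is above the reference in set 4, and Foxp3 is above it in set 2 from 1 UMI and at 0 in the other 5 sets.

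Genes of several B-cell subsets were present together. Fcer2a, the low-affinity IgE receptor of follicular cells, had a UMI in 19 of 77 B cells, and Cr2, the complement receptor that is high on marginal zone cells, in 13. Both were found in 2 cells and neither in 47, at a depth where most transcripts of a cell are not sampled. Plac8 and Mzb1, which are high in marginal zone cells and not limited to them, each had a UMI in 42 cells, at 687 and 517 CPM against 7.61 and 1.71 CPM. Klf2, a factor of quiescent recirculating lymphocytes, was above the reference in 6 of 6 sets, at 989 (837 to 1160) and 521 CPM. Of the 7 genes of the B1 list in the table, Cd5 and S100a6 were lower, at 52.4 against 214 CPM and 72.0 against 291 CPM; both are also expressed by T cells. The 4 germinal centre genes in the table gave 4 UMIs in all, 3 of Fas and 1 of Bcl6, which are named after their values were seen. For a gene with 0 UMIs, 3 counts of the B-cell total allow a level of up to 19.6 CPM.

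Vpreb3, a chaperone-like protein of the pre-B and transitional stages (chromosome 10, 75943057 to 75949657), varied from cell to cell. It had 0 UMIs in 51 of the 77 cells, 1 in 12 and 2 to 5 in 14, and the 14 cells came from all 6 sets. The 14 cells and the 50 with none (leaving out the cell rich in Jchain described below) were set side by side after their values had been seen. Cd24a, high on transitional B cells, was at 863 CPM (527 to 1332) in the 14 cells and 204 CPM (124.7 to 315) in the 50. Ms4a1 was at 2631 CPM (2013 to 3380) and 847 CPM (675 to 1050). Spib was at 604 and 133 CPM, from 14 and 13 UMIs, and Tnfrsf13c at 561 and 174 CPM. H2-Aa was lower in the 14 cells, at 3235 (2545 to 4055) against 4746 (4325 to 5198) CPM, and H2-DMb2 was at 561 against 1102 CPM. H2-Ab1, the partner chain of H2-Aa, was at 5176 (4292 to 6189) against 5695 (5233 to 6188) CPM, and these intervals overlapped. A UMI of H2-Aa was found in 11 of the 14 cells and in all of the 50. Cd74 was near equal, at 23811 and 24353 CPM. Median depth was 1465 UMIs in the 14 cells and 1879.5 in the 50, and the intervals count UMIs within these cells only.

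A single B cell accounted for all Jchain UMIs of the 77. Jchain, the chain that joins secreted IgM or IgA, gave 608 UMIs, or 3981 CPM, in the 77 cells, and all 608 came from 1 cell of set 1. That cell had 5939 UMIs, the most of the 77, and Jchain took 10.2% of them. It held 24 UMIs of Txndc5, 24 of Ssr4 and 13 of Pdia4, which act on proteins of the endoplasmic reticulum, and 12 of Xbp1, a factor of secretory cells. Jchain, Ssr4 and Xbp1 belong to the plasma cell list, of which it also had 11 UMIs of Mzb1, 12 of Edem1 and 5 of Derl3. Of Irf4, Prdm1 and Sdc1, which are in the same list, it had no UMI. It met the rule through 10 UMIs of Ly6d, 5 of Cd79a, 4 of Cd79b and 1 of H2-Aa, and had none of Ms4a1 or Ebf1. It also had 4 UMIs of the T-cell gene Cd3d and none of Cd3e. Per 1000 UMIs it had 10.3 UMIs of 40 B-cell genes, the lowest of the 77, and 5.72 of 40 T-cell genes. The reference cells of set 1 were at 28.9 CPM of Jchain, and those of the other sets at 1.01 to 2.58 CPM. Without the cell, Jchain had 0 UMIs in 76 B cells, Xbp1 was at 13.6 CPM in place of 91.7 CPM, and Mzb1 was at 463 CPM in place of 517 CPM. Leaving this cell out gave 84 genes 2-fold or more higher and 107 lower, and 81 of the 83 were shared.

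Of 2 cell cycle genes and 3 activation genes with a mean level of 100 CPM or more, none was 2-fold higher in B cells. Of all 1161 genes at that level 7.15% were, so 0 among so few genes does not set these lists apart. The 16 cell cycle genes summed to 445 CPM in B cells against 1138 CPM in the reference. Within it Hmgb2, a chromatin protein that is high in dividing cells, was at 85.1 CPM against 367 CPM. Of 3 activation genes with a mean level of 100 CPM or more, Nfkbia was 2-fold lower, at 223 and 487 CPM, and Cd69 and Cd83 were at 131 and 118 CPM against 118 and 102 CPM. Among immediate early genes, Junb was at 137 (85.1 to 210) and 444 CPM and Jund at 550 (439 to 681) and 601 CPM. In the interferon list, 4 of 4 genes with a mean level of 100 CPM or more were within 2-fold, as were 985 of all 1161. Among Bcl-2 family genes, Bcl2 was at 183 and 368 CPM, and Bcl2a1b, which is nearly identical to other copies of its gene, at 26.2 and 210 CPM.

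Bach2, the gene deleted in cKO Treg cells (chromosome 4, 32238804 to 32586108), gave 15 UMIs in 14 of the 77 B cells. Its level was 98.2 CPM (55.0 to 162) in B cells and 28.1 CPM (26.0 to 30.3) in the reference, which pools both genotypes. The log2 ratio was 1.80 with an exact conditional binomial 95% interval of 0.96 to 2.54. The sets gave 3, 5, 2, 1, 1 and 3 UMIs, or 98.2, 145, 117, 46.9, 39.0 and 126 CPM, against 18.0, 25.4, 22.7, 31.7, 36.2 and 36.4 CPM in the reference. B cells were above the reference in 6 of 6 sets, and in sets 4 and 5 this rested on 1 UMI each. At 1000 UMIs drawn per cell, 12.2% of 74 B cells (5.71 to 21.8%) and 2.56% of 9859 reference cells had a Bach2 UMI. Without thinning, the shares were 18.2% and 6.07%.

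T-cell RNA was lower in B cells and not absent. Of the T-cell receptor complex list 3 of 3 genes, and of the T-cell signalling list 8 of 8 genes, with a mean level of 100 CPM or more were 2-fold or more lower. Of all 1161 genes at that level, 8.01% were. Cd3d was at 117, 248 and 422 CPM (lowest, median and highest set) in B cells and at 1246, 1324 and 1436 CPM in the reference. The T-lineage factor Bcl11b had 3 UMIs, or 19.6 CPM (4.05 to 57.4) against 243 CPM, and Sh2d1a, a signalling adaptor of T cells, 2 UMIs, or 13.1 CPM (1.59 to 47.3) against 233 CPM. Foxp3, the defining factor of Treg cells, had 1 UMI in B cells, or 6.55 CPM (0.17 to 36.5), and was at 21.6 CPM in the reference, where 4.89% of cells had a UMI. The log2 ratio of -1.72 had an interval of -7.03 to 0.76, so a difference in Foxp3 was not detectable at this depth.

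Over 38 T-cell and Treg genes with 100 CPM or more in the reference, the level in B cells was a median of 24.6% of the reference level. Among genes of the T-cell and Treg lists, Ms4a4b, of the MS4A membrane protein family, lay at 11.8% (7.51 to 17.8%), Cd3g at 13.5% (9.03 to 19.4%), the Treg surface gene Izumo1r at 15.4% (10.1 to 22.4%), Ikzf2, which encodes Helios, at 15.4% (9.84 to 22.9%), and Cd3d at 18.1% (12.8 to 25.01%). The 77 cells were chosen for few Cd3e UMIs, which favours low values here. With all 89 B cells the log2 ratios of Ms4a4b, Cd3g and Izumo1r rose above these intervals. They went from -3.08, -2.89 and -2.70 to -2.20, -2.04 and -1.81. Those of Ikzf2 and Cd3d stayed within their intervals, at -2.14 and -2.01. Of the 38, 4 lay under 10%: Bcl11b, Icos, Cd28 and Tox, the last 3 chosen after their values were seen, with 0, 1 and 1 UMIs. Between 10 and 25% lay 16 genes, and between 25 and 50% lay 11, among them Lat at 26.9% and Cd2 at 49.8%. Another 7 lay over 50%: the Gimap genes 3 to 7, which B cells are known to express as well, Ltb, a lymphotoxin chain made by both lineages, at 72.7% (62.8 to 83.6%), and Capg, an actin-capping protein of the Treg list, at 92.0% (69.96 to 119%).

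**Figure D4:**
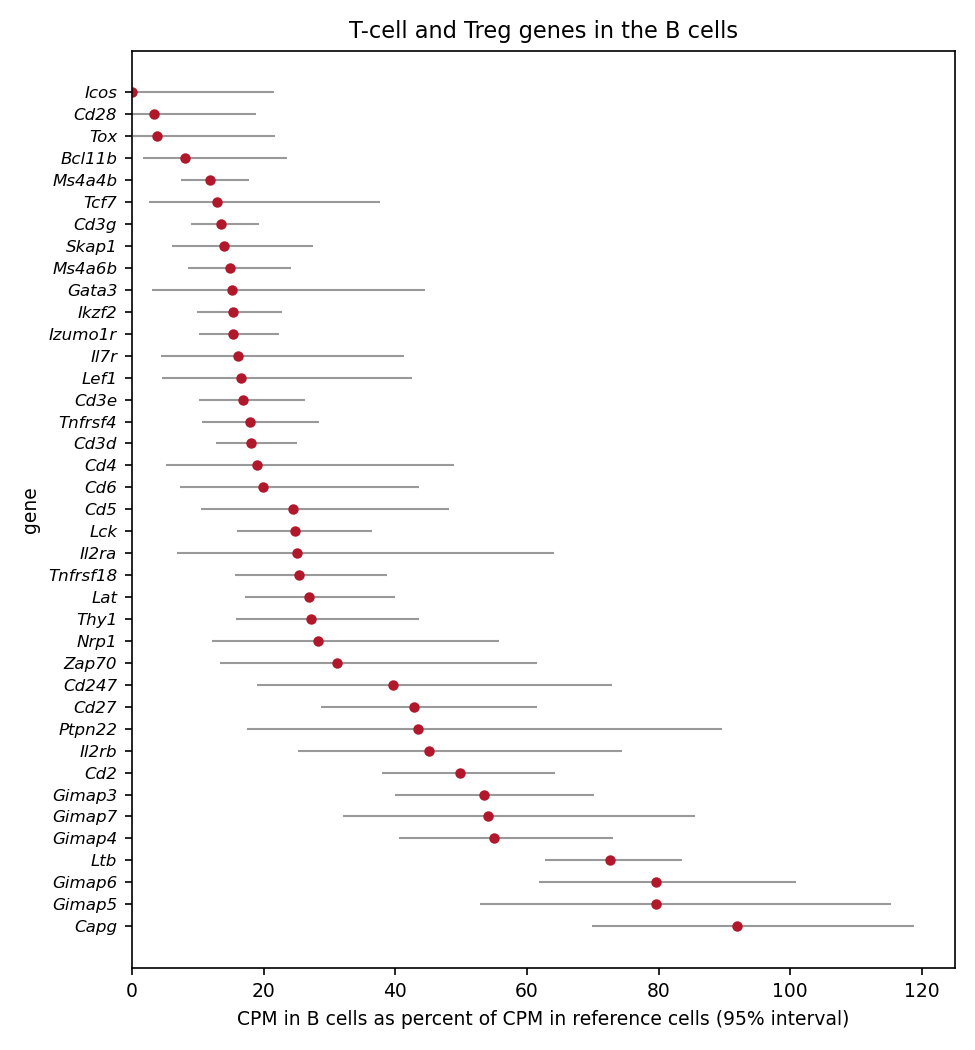
Level of T-cell and Treg genes in B cells with under 2 Cd3e UMIs, as a percent of the level in reference cells (horizontal axis), with exact conditional binomial 95% intervals. Genes are ordered by this percent, Cd3e was part of the split, and Ms4a4b, Cd3g, Izumo1r, Ikzf2 and Cd3d lie between 11.8% and 18.1%.

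At 1000 UMIs per cell, 16.2% of 74 B cells (8.67 to 26.6%) had a UMI of Cd3d and 72.7% of 9859 reference cells did, after 3 B cells and 303 reference cells that were shallower had been left out. Before thinning, a Cd3d UMI was found in 37.7% of B cells (median depth 1849 UMIs) and 90.9% of reference cells (2082.5 UMIs). The same draw gave 9.46% and 64.7% for Ms4a4b, and 62.2% and 78.3% for Ltb. In the other direction, the reference level was 0.977% of the B-cell level for Cd74, 1.64% for Cd79b, 0.125% for Ms4a1 and 0.0435% for Ebf1. These were chosen as B-lineage genes, and genes such as H2-DMa, Hvcn1 and Irf8 had higher reference levels, given above. Reference cells with a Cd74 UMI were 31.4% of all and had at most 24 UMIs, while the median B cell had 48. The source of the T-cell RNA in the B cells was not tested.

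The 12 B cells with 2 or more Cd3e UMIs were deeper, with a median of 3943.5 UMIs (1573 to 7431) and 1554 genes. Deeper cells reach 2 UMIs of a gene more easily, so the split itself favours depth. The sets held 4, 1, 0, 2, 2 and 3 of them. Of the 12, 8 had exactly 2 Cd3e UMIs and 4 had 4 or more. A T sum and a B sum were formed for each cell, from 40 T-cell and Treg genes without Cd3e and from 40 B-cell genes without Bach2 and the rule's markers, each per 1000 UMIs of the cell. The T sum had a median of 2.75 (0.56 to 7.41) in the 77 B cells, 6.36 (1.85 to 14.3) in the 12, and 12.5 in the reference. The B sum had a median of 46.4 in the 77 cells, 35.1 in the 12, and 1.96 in the reference.

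The 12 cells were spread widely over these sums. In 5 of them the T sum was above the highest of the 77 B cells, at 8.54 to 14.3, with a B sum of 14.3 to 26.9 and 3770 to 7263 UMIs. The midpoints of the pooled values of B and reference cells were 7.84 for the T sum and 23.3 for the B sum. The cells with the highest T sums, 13.3 and 14.3, were above the reference median of 12.5, with B sums of 17.4 and 14.3. The other 7 cells were within the range of the 77 on both sums. Of these, 1 had a T sum of 6.998, a B sum of 24.8 and 7431 UMIs, the most of the 12. The remaining 6 had a T sum of 1.85 to 5.72, a B sum of 43.2 to 66.4 and 1573 to 4107 UMIs. A median B cell and a median reference cell added together give 3931.5 UMIs, a value given for scale because the split itself favours deeper cells. No doublet caller was run, and whether these cells are doublets was not tested.

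**Figure D5:**
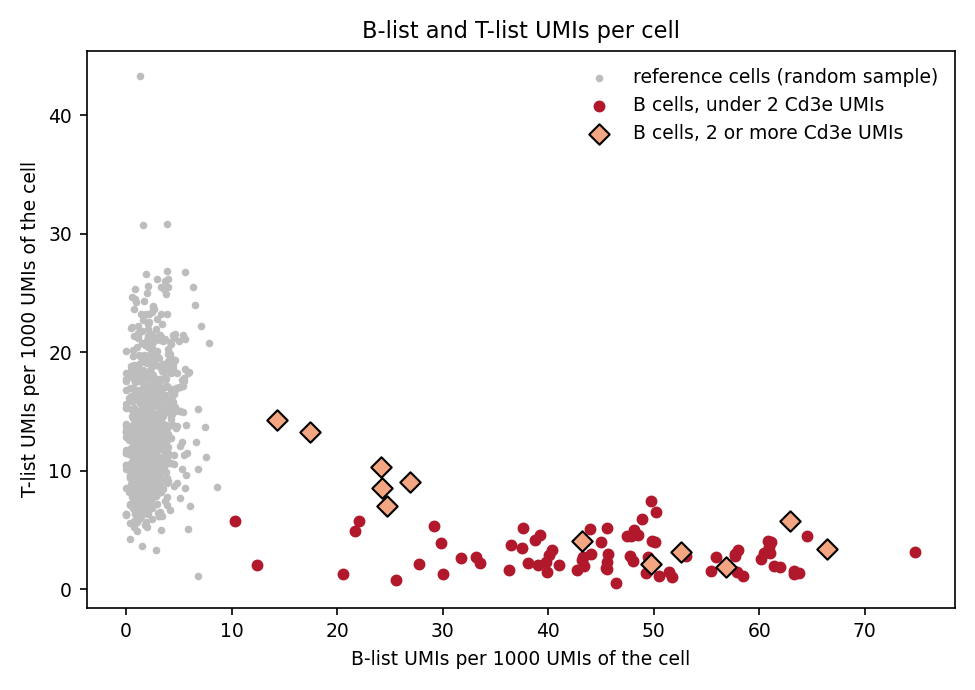
UMIs of 40 B-cell genes (horizontal axis) and of 40 T-cell and Treg genes (vertical axis), each per 1000 UMIs of the cell, 1 point per cell: B cells with under 2 Cd3e UMIs (red), B cells with 2 or more (diamonds) and 1000 randomly drawn reference cells (grey). Of the 12 diamonds, 5 lie above all red cells on the vertical axis and 7 lie within the range of the red cells on both axes.

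The lists of other cell types gave mixed levels in the 77 cells. Over all 14098 genes, 5538 had no UMI in them. Of 13 macrophage and monocyte genes in the table, 11 had no UMI, and the list summed to 52.4 CPM against 35.9 CPM, with 29.1 to 117 CPM in the sets and 6.57 to 109 CPM in the reference. Tyrobp, an adaptor of myeloid and natural killer cells, gave 7 of its 8 UMIs. Csf1r, Itgam, Adgre1 and Cd68 were at 0, and at 0.08 to 1.38 CPM in the reference, under the 19.6 CPM that 3 counts give in B cells. Apoe, a lipid carrier that macrophages make in quantity and a gene of none of the lists, was at 32.7, 340 and 779 CPM (lowest, median and highest set) against 3.54 to 16.4 CPM in the reference; it was chosen after its values were seen. Of 9 natural killer and cytotoxic genes, 7 had no UMI, and the list summed to 19.6 CPM against 96.0 CPM. Of 7 dendritic cell genes, 4 had no UMI, and the list summed to 268 CPM against 139 CPM, mostly through Cst3, which many cell types express, at 255 (182 to 349) and 136 CPM. The list of plasmacytoid dendritic cells, with 2 of 5 genes at 0, summed to 170 CPM against 221 CPM. The part of other cell types in the B-cell levels was not tested. Globin genes were lower in B cells, Hba-a1 and Hba-a2 with 1 and 2 UMIs against 247 and 188 CPM. In the reference 4 cells drew 71.4% or more of their UMIs from erythroid genes, and without them the log2 ratios of Hba-a2 and Hbb-bs changed sign, from -3.84 to 0.43 and from -3.16 to 0.36.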

How the data were processed

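The deposited count table holds UMI counts per gene and cell, 14098 genes in 10685 cells, and the authors' second table holds natural log values that equal ln(1 + 10000 × count / cell total) to within 1e-12 for 10464 cells. Cell Ranger, Seurat, HISAT2, cutadapt and FastQC are named, without versions, beside mm10 in the submitters' processing notes. Here counts were used, with Python 3.11.15, numpy 2.4.6, scipy 1.17.1, pandas 2.3.3 and matplotlib 3.10.9. UMIs were summed per group. A group at 0 was set to 3 counts, which makes its fold a bound. Named genes were Bach2, Foxp3, the 5 markers, the 12 largest ratios each way at a mean level of 100 CPM or more, and in each list the 6 members with most UMIs in B cells and the 4 with the largest ratio; others are named as chosen later or only by count. Members, lists and rules were chosen with earlier results of these data known. The ratio code was tested on simulated data. None of 383 V and C gene symbols of the immunoglobulin and T cell receptor loci was in the table, so immunoglobulin classes are not analysed here. A few genes of the lists are not reported here. Cells are not replicates, and the table is 1 pooled sample. Alternatives changed the rule, the reference, the scaling and the filters, and left out each set.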

Additional observations from a re-analysis of the deposited data

Results flagged for a closer look

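Over the 6 barcode sets 32 values were examined, the share of B cells and the levels of named genes in B cells. Of these, 4 had 1 set far from the other 5 by Dixon's criterion. Chance gives this for about 1 in 20 groups of normally distributed values, a rate that does not hold for sparse counts. A gene with UMIs in 1 set alone is always flagged, as Jchain, Sh2d1a and Hba-a1 were, so the 4 cannot be set against that rate. Jchain was at 19895 CPM in the B cells of set 1 and at 0 in the other 5 sets, from the single cell described above. Sh2d1a was at 93.7 CPM in set 4 and 0 in the others, from 2 UMIs. Hba-a1 was at 39.0 CPM in set 5, from 1 UMI, and Hbb-bs at 195 CPM in set 5, where the next set had 65.4 CPM.

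Outside the rule, another cell of set 1 held 453 UMIs of Jchain, which was 12.96% of its 3495 UMIs, while no reference cell had more than 3. It had 1 UMI of Cd79a and a marker sum of 3, with 10 UMIs of Mzb1, 12 of Xbp1, 2 of Sdc1 and 2 of Cd3e. Of Irf4 and Prdm1 it had no UMI. The 2 cells together held 85.7% of the 1238 Jchain UMIs of the table.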

How the results depend on the processing

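The number of B cells was 89 as reported and 77 to 91 under the other marker sums, Cd79a minimums and thinning, but 0 when only cells of the authors' normalised table were used; ratios in that table could not be computed. The counts of 83 genes higher and 93 lower were 157 and 171 when ribosomal and mitochondrial genes were left out of the total, which puts more genes past 100 CPM, 36 and 39 with a mean level of 200 CPM or more, and 1516 and 1140 with no filter. Leaving out each set gave 78 to 90 higher and 90 to 104 lower. Of the 83 higher genes 75, and of the 93 lower genes 70, stayed past 2-fold without each set in turn. The median level of T-cell genes was 21.99 to 25.01% of the reference without each set, 33.8% with all 89 B cells and 19.7% as a mean over cells. The log2 ratio of Bach2 was 1.56 to 2.05 without each set and 1.49 to 2.05 over all alternatives. Without the 4 erythroid reference cells, an alternative chosen after seeing the data, Hbb-bs changed from -3.16 to 0.36 and Hba-a2 from -3.84 to 0.43. Of 572 values of 36 single-gene ratios under alternatives, 536 stayed within the interval first given, 34 moved beyond it and 2 changed sign. The 152733 UMIs of 77 cells limit the precision of every B-cell level. No paired analysis was possible because no set of cells could be tied to a replicate number of the labels; B and reference cells of the same set were compared, and the mean of the levels per set gave 81 genes higher and 95 lower.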
